A study of Mus musculus with 33 samples.

Results

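The genes described here are 53 histone and DNA modifying enzymes and corepressors, taken from a list of symbols that was drawn up with earlier results of these data known: 4 class I deacetylases, 7 class II and IV deacetylases, 7 sirtuins, 9 acetyltransferases, 9 histone methyltransferases, 9 histone demethylases, 5 genes of DNA methylation and 3 corepressors. All 53 were found among the 38355 genes of the count files and among the 40678 loci of the FPKM files, and all 53 passed the filters on low values, which kept 16962 genes and 18420 loci. In the FPKM files 3 of them had a locus joined with other genes, namely Ep300 (with Gm23880), Sirt7 (with Mafg and Myadml2) and Setd1a (with Hsd3b7), so that their FPKM are not theirs alone.

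The study asked whether JQ1, a small molecule inhibitor of BET proteins, alters gene expression in CA1, the output field of the hippocampus. In the aged experiment, 6 APP mice received JQ1 (50 mg/kg, daily for 10 days), 6 APP mice received vehicle (10% DMSO) for 10 days and 4 aged WT mice received vehicle for 10 days; at 8 to 10 months of age these APP mice, of the line APP/PS1-21, carry mutant human transgenes driven by the neuronal Thy1 promoter. The labels list replicate 2 of the aged WT group too, which was not analysed here, and name the APP line as the strain of the aged WT mice, which were taken as WT from their titles. In the young experiment, WT mice aged 3 months received JQ1 (50 mg/kg) or vehicle for 13 days, with 8 mice in each group. According to the study's methods the aged mice were female and the young ones male, and all were killed after water maze testing. The samples were bulk tissue, in which fewer cells of a type and less RNA per cell cannot be told apart.

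Histone acetyltransferases write acetyl groups on histone tails, bromodomain proteins such as the BET proteins read them, and deacetylases, among them the NAD-dependent sirtuins, remove them. Methyltransferases and demethylases set and erase histone methylation, DNMT enzymes place methyl groups on DNA and TET enzymes oxidize them, and corepressors such as NCoR1, Sin3a and CoREST bring deacetylases to genes. JQ1 occupies the bromodomain of the reader, whereas the enzymes described here write and erase the marks. Several of these enzymes, such as Hdac2, Crebbp and Dnmt3a, are known for roles in hippocampal memory.

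The aged samples held from 14605459 to 25339482 gene counts each, and every member had at least 91 counts in all of them. The JQ1-treated APP mice held 14605459 to 24441065 gene counts and the vehicle-treated ones 18329265 to 25339482. For the young samples only FPKM were given, and depth is unknown. Summed marker levels showed where the libraries stood apart: the markers of choroid plexus reached 3152 CPM (counts scaled to a common library total) in aged WT vehicle 4, against 22.9 to 143 CPM in the other 15 aged samples. Astrocyte markers summed to between 1462 and 6326 CPM in the APP mice and to between 1214 and 1302 CPM in the aged WT mice, and microglia markers to between 253 and 825 CPM against 234 to 275 CPM. Both lowest values of the APP mice were those of APP JQ1 4, whose microglia markers lay within the range of the aged WT mice. The next lowest were those of APP vehicle 6, with 2258 CPM for astrocytes and 462 CPM for microglia. Markers of pyramidal neurons summed to 7001 to 9471 CPM in the JQ1-treated APP mice and 7810 to 8911 CPM in the vehicle-treated ones. In the aged WT mice they summed to 9193 to 10152 CPM, above all vehicle-treated APP mice. Interneuron markers summed to 693 to 921, 727 to 935 and 887 to 991 CPM in these groups, which overlapped. Markers of the CA1 field summed to between 693 and 1126 CPM in the aged samples. No marker of the lists for neurons, glia, endothelium or choroid plexus was at 0 throughout a group. Their part in the results below was not tested.

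The exonic base composition of the members ranged from 41.0% GC for Hdac2 to 60.3% GC for Ehmt2, and the comparison of JQ1 with vehicle in APP mice was ordered along this range. To show what the range looks like at the level of bases, the central 120 bases of the longest coding exon are printed below. The members are the pair with the lowest and the pair with the highest fold changes in that comparison. Bases are read in the direction of the gene from GENCODE mouse release M21 (GRCm38, the same assembly as mm10). G and C are in capitals and A and T in lower case.
Sirt6: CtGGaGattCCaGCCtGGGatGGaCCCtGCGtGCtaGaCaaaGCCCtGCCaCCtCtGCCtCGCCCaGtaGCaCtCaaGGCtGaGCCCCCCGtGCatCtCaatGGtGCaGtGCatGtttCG
Kdm6b: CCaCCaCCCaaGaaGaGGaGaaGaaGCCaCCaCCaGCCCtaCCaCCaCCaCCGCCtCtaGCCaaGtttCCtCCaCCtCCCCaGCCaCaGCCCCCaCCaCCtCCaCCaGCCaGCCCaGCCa
Kdm5a: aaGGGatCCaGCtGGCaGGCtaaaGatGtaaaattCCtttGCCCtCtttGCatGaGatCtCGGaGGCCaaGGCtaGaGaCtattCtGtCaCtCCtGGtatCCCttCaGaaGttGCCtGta
Tet1: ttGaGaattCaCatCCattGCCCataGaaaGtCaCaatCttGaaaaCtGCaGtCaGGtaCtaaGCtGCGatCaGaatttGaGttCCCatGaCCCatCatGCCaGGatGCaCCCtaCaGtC

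The stretch of Sirt6 lies in exon 8 of 8 of its longest coding transcript (chr10:81622488-81622607, minus strand) and held 60.8% GC, against 58.4% over all exons of the gene. That of Kdm6b lies in exon 11 of 23 (chr11:69405030-69405149, minus strand) and held 65.0% GC, against 59.0% over the gene. The stretch of Kdm5a lies in exon 23 of 28 (chr6:120427030-120427149, plus strand) and held 48.3% GC, more than the 41.8% of the whole gene. That of Tet1 lies in exon 4 of 13 (chr10:62839217-62839336, minus strand) and held 45% GC, close to the 44.2% of the gene.

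Levels per length differed widely among the members. In the 10 vehicle-treated aged mice, the mean CPM per kb of exon (the union of all annotated exons) was highest for Hdac11 with 63.7, the only class IV deacetylase, followed by Ehmt2 with 43.7, which methylates histone H3 at lysine 9. Sirt2, a mainly cytoplasmic deacetylase abundant in oligodendrocytes, and Hdac3, the catalytic partner of the NCoR complex, followed with 35.3 each and did not differ beyond their spread. The lowest levels were those of Tet1 with 0.607, Ezh2 with 1.20 and Hdac4 with 1.23 CPM per kb. In the young vehicle-treated mice, the mean FPKM was highest for the locus of Ncor1 with 104.6 ± 5.25 (SD, n = 8), followed by Sirt2 with 81.0 and Hdac11 with 78.9, and it was lowest for Tet1 with 1.996 ± 0.335 and Ezh2 with 3.68 ± 0.433. The scales differ in how a gene's length was set and the tables were normalized separately, so the values stand side by side only. The widest gaps between them were those of Hdac4, with an FPKM of 14.6 in young mice beside 1.23 CPM per kb, and of Hdac1, with 14.2 beside 2.15.

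**Figure D1:**
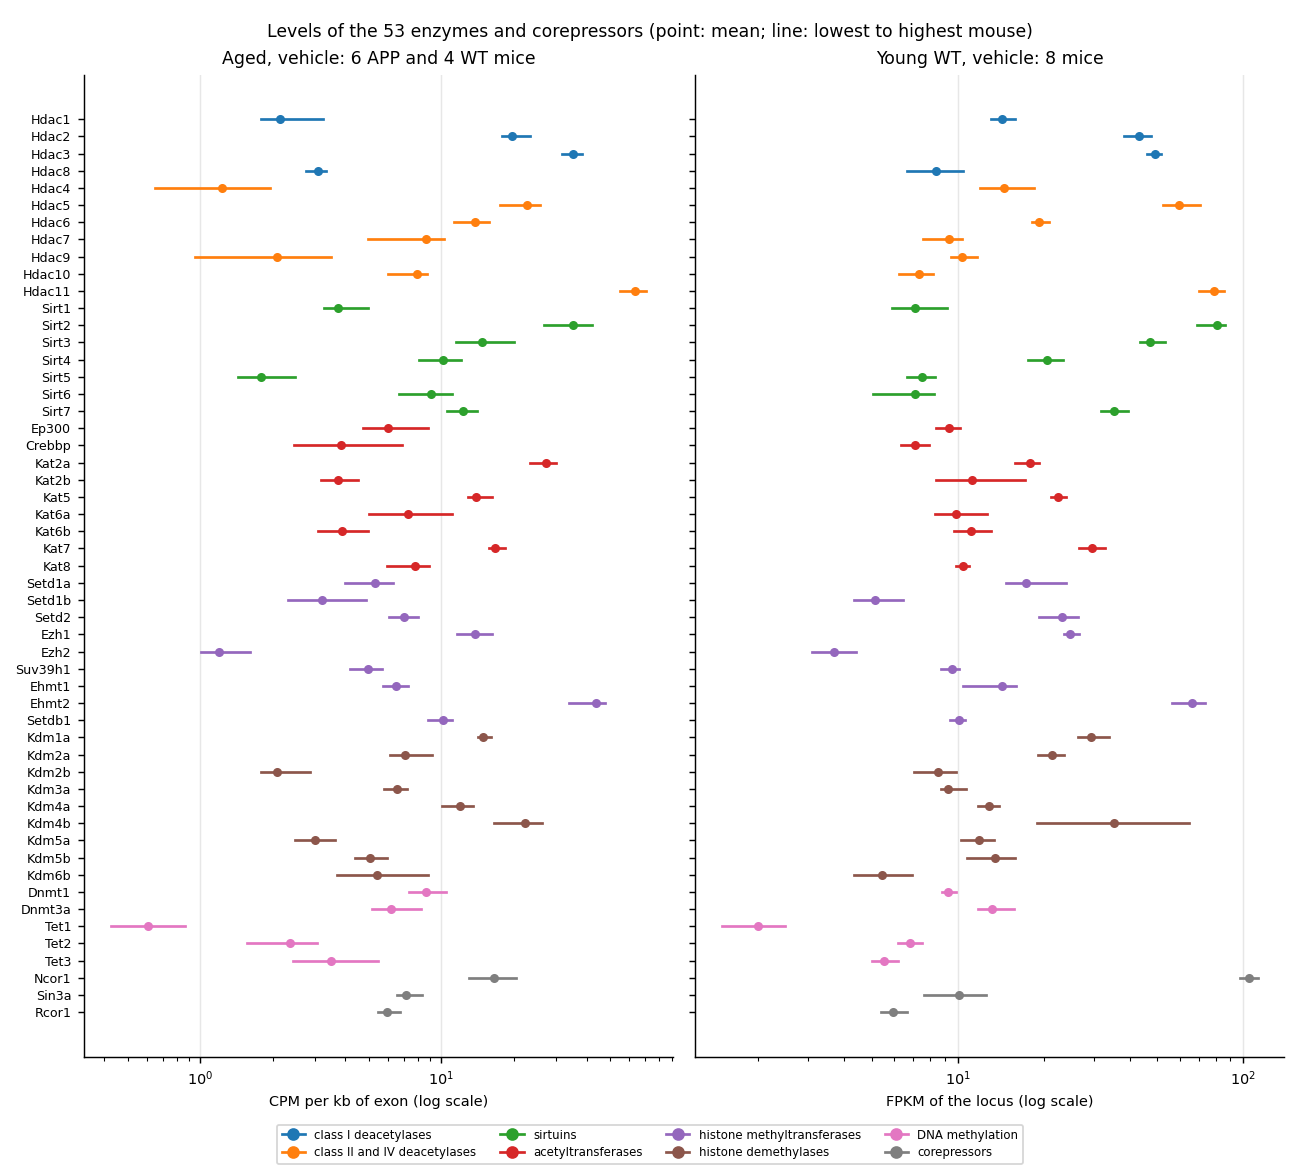
Mean level (points) and range over mice (lines) of the 53 members, as CPM per kb of exon in the 10 vehicle-treated aged mice (left) and as FPKM in the 8 vehicle-treated young mice (right), both on a log scale and coloured by family. Tet1 was lowest on both sides, at 0.607 CPM per kb and an FPKM of 1.996, and Hdac11 and Sirt2 were among the highest on both.

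The spread between mice of a group also differed among members. In the vehicle-treated APP mice the coefficient of variation ran from 3.42% for Hdac2 to 41.9% for Crebbp, with a median of 10.3%. Crebbp, the CREB-binding acetyltransferase, measured 33.3 CPM in the lowest, 50.8 in the median and 92.6 in the highest vehicle-treated APP mouse. The highest was replicate 2, which was also highest for Kdm6b with 61.0 CPM, for Tet3 with 91.1 CPM and for Ep300 with 125.9 CPM, and in which 24.5% of the uniquely mapped reads lay outside exons, against 15.4% to 22.3% in the other 5 vehicle-treated APP mice. A relation between this share and the levels was not tested.

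In APP mice, JQ1 against vehicle addressed the response to the inhibitor in diseased tissue. Among all genes, 184 of 16962 (1.08%) had an adjusted p under 0.05 in edgeR's quasi-likelihood test, and among the members 1 of 53 did. This was Sirt6 (ENSMUSG00000034748, chr10:81621785-81627797, minus strand), a nuclear deacetylase that acts on histone H3 and in DNA repair. Of the 53 members, 24 had a fold change above 0 and 29 below 0, with a median log2 fold change of -0.04 over the members and -0.0010 over all genes. At an unadjusted p under 0.05, 6 were higher and 9 lower. Counts at an unadjusted p, here and below, stand without the share of all genes at that threshold. They are not read as a result about the members or lists.

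Sirt6 measured 14.0 CPM in the lowest, 17.8 in the median and 21.8 in the highest JQ1-treated APP mouse, and 22.7, 25.9 and 30.7 CPM in the vehicle-treated ones. Each of the 6 JQ1-treated mice lay below each of the 6 vehicle-treated ones. The means were 18.2 ± 3.27 and 26.5 ± 2.83 CPM (SD, n = 6 each), and Sirt6 fell by 0.54 on the log2 scale (SE 0.12, edgeR's adjusted p = 0.0375); the exact permutation test, 2-sided and not adjusted, gave p = 0.00216, the smallest that 6 against 6 allows. Groups without overlap were found for 344 of 16962 genes (2.03%) and for 1 of the 53 members. In the aged WT mice Sirt6 measured 18.5, 24.7, 25.7 and 25.3 CPM in replicates 1, 3, 4 and 5, so that replicate 1 lay within the range of the JQ1-treated mice. The call for Sirt6 was lost when GC content and length were modelled (log2 fold change -0.32, edgeR's adjusted p = 0.305) and in 10 of 16 fits that left out 1 sample.

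The other sirtuins did not pass the test. Sirt5, a mitochondrial desuccinylase, had the third largest fold change above 0 among the members, with 9.17 CPM in the lowest, 13.2 in the median and 14.1 in the highest JQ1-treated mouse and 8.74, 10.0 and 11.4 CPM in the vehicle-treated ones (log2 fold change 0.29 ± 0.13 SE, edgeR's adjusted p = 0.254). The groups overlapped. Sirt7, the nucleolar member, had a log2 fold change of -0.25 (adjusted p = 0.154), Sirt2 one of -0.10, Sirt4 one of -0.00, Sirt3 one of 0.05 and Sirt1 one of 0.10, and none of these passed.

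Among the class II and IV deacetylases, 6 of 7 had fold changes below 0 and none passed the test. Hdac7 measured 33.7 CPM in the lowest, 52.2 in the median and 55.3 in the highest JQ1-treated APP mouse and 54.1, 61.5 and 69.5 CPM in the vehicle-treated ones (log2 fold change -0.38 ± 0.15 SE, edgeR's adjusted p = 0.194). Its groups overlapped by 1 sample of each. Hdac5, a class IIa deacetylase that shuttles out of the nucleus with neuronal activity, measured 150.8, 166.5 and 173.5 CPM with JQ1 and 153.5, 214.2 and 224.8 CPM with vehicle (log2 fold change -0.32 ± 0.09 SE, edgeR's adjusted p = 0.0734). All vehicle-treated mice but replicate 1 lay above all JQ1-treated ones. Hdac9 was the member above 0, with a log2 fold change of 0.17 ± 0.22 SE and wide ranges of 18.8 to 44.1 CPM with JQ1 and 14.0 to 32.9 CPM with vehicle. Of the class I deacetylases, Hdac2 had a log2 fold change of 0.15, and Hdac1, Hdac3 and Hdac8 lay between -0.07 and -0.04.

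The histone demethylases held the highest fold change of the members, that of Kdm5a, and the lowest after Sirt6, that of Kdm6b. Kdm6b, which removes the repressive methyl marks of histone H3 lysine 27, measured 26.9 CPM in the lowest, 28.4 in the median and 32.8 in the highest JQ1-treated APP mouse and 29.1, 37.3 and 61.0 CPM in the vehicle-treated ones (log2 fold change -0.48 ± 0.14 SE, edgeR's adjusted p = 0.0958). Kdm5a, which removes the activating methyl marks of histone H3 lysine 4, measured 46.6, 53.1 and 63.0 CPM with JQ1 and 34.9, 41.8 and 47.1 CPM with vehicle (log2 fold change 0.38 ± 0.09 SE, edgeR's adjusted p = 0.0503). In both genes the groups overlapped, and neither passed the test; both had an adjusted p under 0.05 in DESeq2, 0.0379 for Kdm6b and 0.00623 for Kdm5a. DESeq2 called 749 of 14305 genes (5.24%) and 4 members, the others being Sirt6 and Hdac5. With RLE size factors edgeR called 194 of 16962 genes (1.14%), and with at least 10 counts in every sample 217 of 14211 (1.53%), with Sirt6 and Kdm5a as the members called in both. Kdm4b, which acts on histone H3 lysine 9, had a log2 fold change of -0.31 (edgeR's adjusted p = 0.116), and the other 6 demethylases lay between -0.15 and 0.11.

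**Figure D2:**
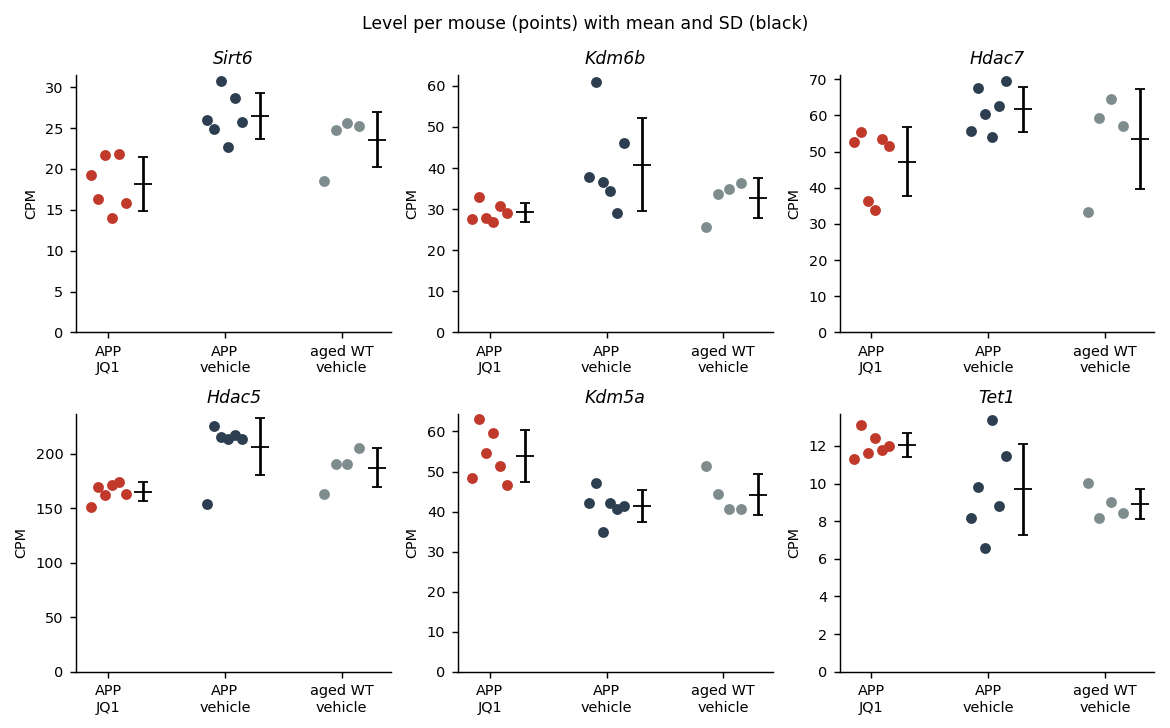
CPM per mouse of 6 members in the 3 aged groups (points), with the mean and SD in black. For Sirt6 the JQ1-treated APP mice (14.0 to 21.8 CPM) lay below the vehicle-treated ones (22.7 to 30.7 CPM), while the groups overlapped for Kdm6b, Hdac7, Hdac5, Kdm5a and Tet1.

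In the DNA methylation genes, Tet1 measured 11.3 CPM in the lowest, 11.9 in the median and 13.1 in the highest JQ1-treated APP mouse and 6.57, 9.30 and 13.4 CPM in the vehicle-treated ones (log2 fold change 0.31 ± 0.14 SE, edgeR's adjusted p = 0.255). The vehicle-treated mice enclosed the JQ1-treated ones, replicate 4 being the highest of all. Tet2 had a log2 fold change of 0.15, Tet3 one of -0.23, Dnmt3a one of -0.20 and Dnmt1 one of -0.08, and none passed. Among the methyltransferases, Setd1b (-0.34), Setd1a (-0.28) and Ehmt2 (-0.19) had the lowest log2 fold changes and Setd2, which methylates histone H3 lysine 36, the highest (0.20), and the adjusted p of the 9 in edgeR lay between 0.190 and 0.832. The 9 acetyltransferases lay between -0.17 for Crebbp and 0.17 for Kat2b. The 3 corepressors all lay above 0, with Ncor1 at 0.25 ± 0.11 SE (201.5, 255.1 and 276.5 CPM with JQ1 against 165.9, 199.4 and 261.7 CPM with vehicle, edgeR's adjusted p = 0.242), and their groups overlapped.

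The precision set what could be seen. The SE of the log2 fold change ran from 0.06 for Kdm1a to 0.23 for Crebbp with a median of 0.10, and for 41 of 53 members the 95% normal interval lay between -0.5 and 0.5. The members that missed the threshold are therefore not shown to be equal between the groups.

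Over the 53 members, the log2 fold change of JQ1 against vehicle in APP mice followed the GC content of the exons, with Pearson's r = -0.82 and Spearman's rho = -0.82, given as a description, since all points come from the same 12 libraries. Over the 16770 tested genes with a GC content, r was -0.38. The slopes were closer to each other than the correlations, at -0.30 (log2 per 10 points of GC) over the members and -0.26 over these genes. Of the 12 members of 55% GC and over, 11 had a fold change below 0, with a median log2 fold change of -0.30, and of the 3416 genes tested in that class 86.9% did, with a median of -0.20. Of the 11 members under 45% GC, 10 had a fold change above 0, with a median of 0.15, and of the 4333 genes in that class 83.3% did, with a median of 0.17. The 30 members between these limits split into 13 above and 17 below 0. The members below 0 at high GC were Sirt6, Kdm6b, Hdac7, Setd1b, Hdac5, Kdm4b, Setd1a, Hdac10, Ehmt2, Kat2a and Hdac11, from 5 of the 8 families, and the exception was the acetyltransferase Kat5 with 0.03.

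**Figure D3:**
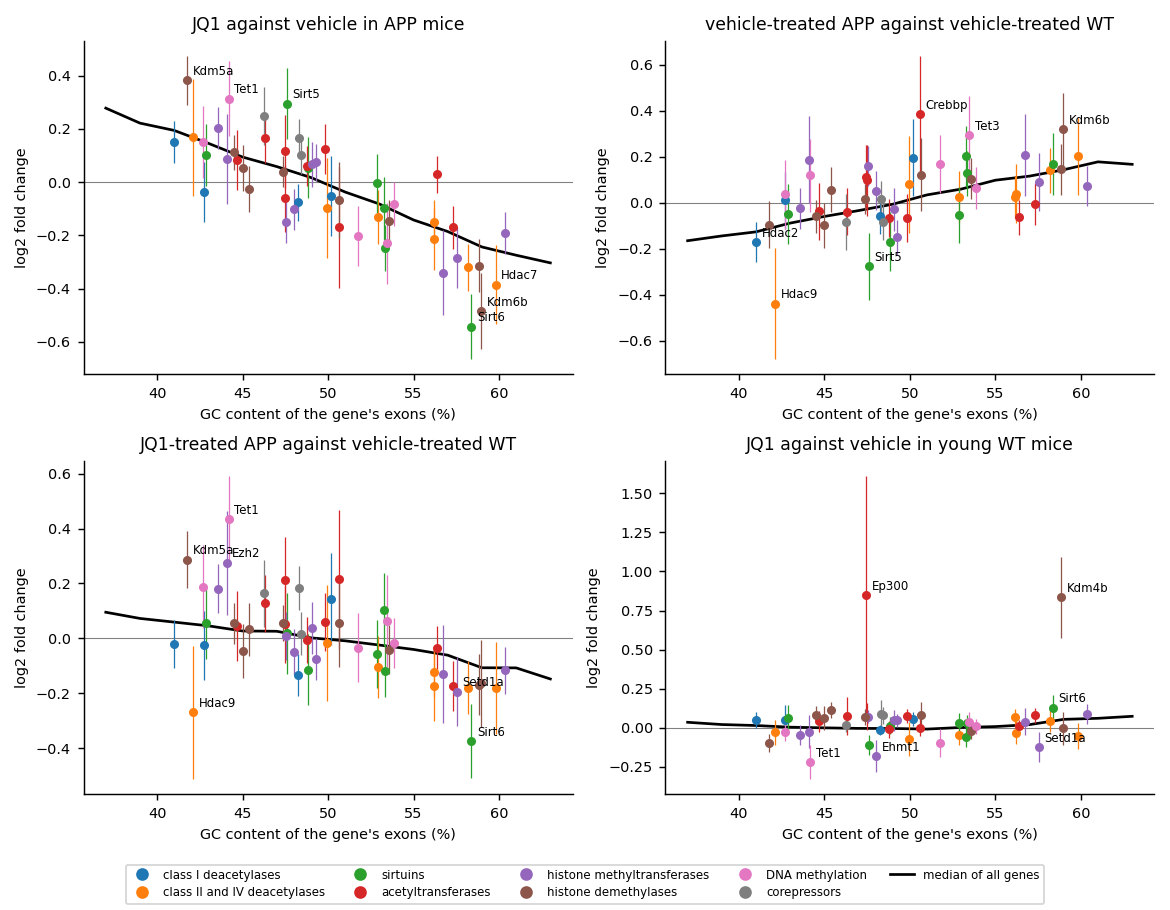
Log2 fold change (with SE) of the 53 members against the GC content of their exons in the 4 comparisons, coloured by family, with the median of all genes or loci tested in steps of 2 points of GC as a black line. In JQ1 against vehicle in APP mice the members go from 0.38 for Kdm5a at 41.8% GC to -0.54 for Sirt6 at 58.4% GC. The line of all genes falls the same way but stays nearer 0, with 0.19 at 40 to 42% GC and -0.24 at 58 to 60% GC. In young WT mice the line lies near 0.

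The slope on GC content was also taken in each library, relative to the mean of its experiment. Over the members it lay between -0.32 and -0.03 (log2 per 10 points of GC) in the 6 JQ1-treated APP mice and between -0.01 and 0.28 in the 6 vehicle-treated ones, so that these groups did not overlap. Aged WT vehicle 1 stood apart from its group with -0.25, against 0.05, 0.11 and 0.13 in the other 3. Over all genes tested, the slopes went from -0.23 to 0.01 in the JQ1-treated and from 0.08 to 0.22 in the vehicle-treated APP mice, and again did not overlap. In the young mice the slopes over the members were -0.06 to 0.10 with JQ1 and -0.20 to 0.11 with vehicle, and they overlapped. The share of uniquely mapped reads outside exons was 16.9% to 26.9% in the JQ1-treated APP mice, 15.4% to 24.5% in the vehicle-treated ones and 16.3% to 18.9% in the aged WT mice, and the steepest negative slopes in APP mice, those of JQ1 replicates 3 and 4, came with 16.9% and 17.1%. These libraries held 15865150 and 15053669 gene counts, while JQ1 replicate 6, with the fewest (14605459), had a slope of -0.13 over the members. A relation of the slopes with depth was not tested.

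**Figure D4:**
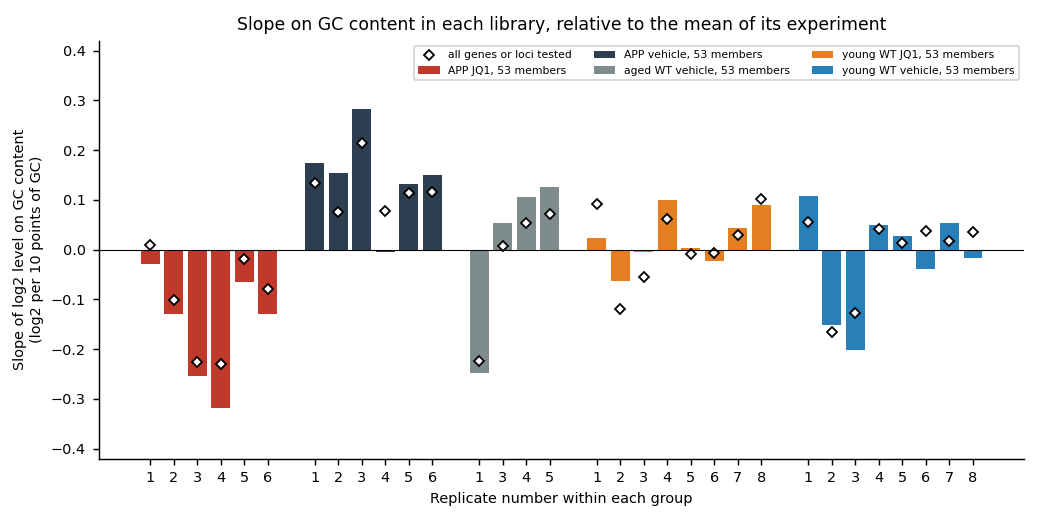
Slope of the log2 level on GC content in each of the 32 libraries, in log2 per 10 points of GC relative to the mean of the experiment, over the 53 members (bars, coloured by group) and over all genes or loci tested (diamonds). All JQ1-treated APP mice lie between -0.32 and -0.03 and aged WT vehicle 1 lies at -0.25, while the young groups overlap.

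With GC content and length modelled in the fit, the test called 40 of 16962 genes (0.236%) and no member, with 5 members higher and 3 lower at an unadjusted p under 0.05, and r over the members went from -0.82 to -0.18. The members of 55% GC and over then split into 4 above and 8 below 0, with a median log2 fold change of -0.05. Sirt6 kept the lowest value (-0.32 ± 0.10 SE), Kdm6b stood at -0.20 and Hdac7 at -0.10, Hdac5 and Kdm4b were at -0.06 and -0.04, and Ehmt2, at 60.3% GC, went from -0.19 to 0.12. At the other end, Kdm5a went from 0.38 to 0.18 and Hdac2, at 41.0% GC, from 0.15 to -0.05, while Sirt5, at 47.6% GC, stayed near its value with 0.26. With the share of reads outside exons as a covariate instead, 517 of 16962 genes (3.05%) and 8 members were called, namely Kdm5a above 0 and Sirt6, Kdm6b, Hdac5, Hdac7, Setd1a, Setd1b and Dnmt3a below 0, 6 of them of 55% GC and over. The labels used here give no preparation batch, so a batch and the treatment cannot be told apart.

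**Figure D5:**
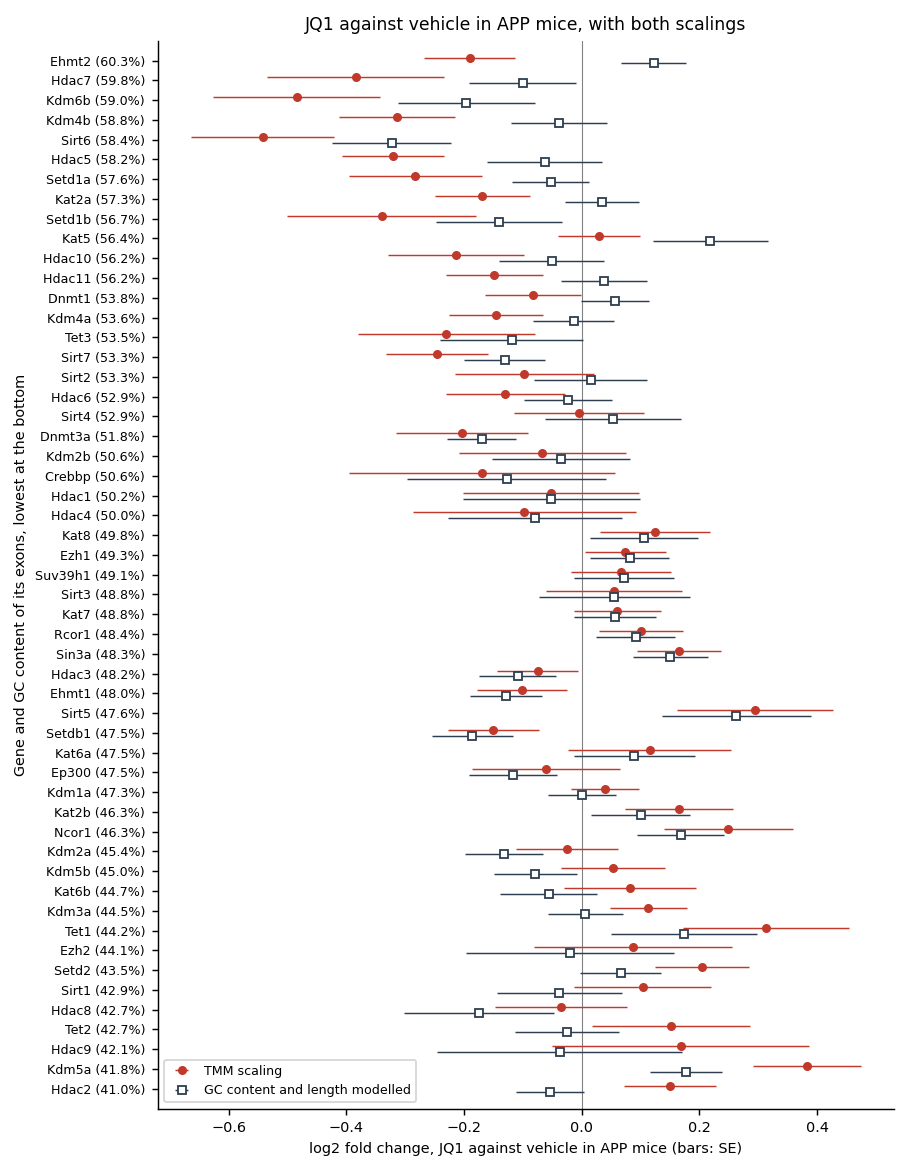
Log2 fold change (with SE) of JQ1 against vehicle in APP mice for the 53 members in order of GC content, with TMM scaling (filled) and with GC content and length modelled (open). Sirt6 goes from -0.54 to -0.32 and Kdm5a from 0.38 to 0.18, and no member is called with the second scaling.

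The comparison of vehicle-treated APP with vehicle-treated WT mice addressed the effect of the transgenes without the drug. Of all genes tested 436 (2.57%) were called, and of the members none was, with 0 at an unadjusted p under 0.05 in edgeR and 2, both lower, in DESeq2, which called none after adjustment. The fold changes were above 0 for 32 members and below 0 for 21 (median log2 fold change 0.04, against 0.01 over all genes). Over the members, r with GC content was 0.49, and 0.23 without aged WT vehicle 1. With GC content and length modelled the split was 18 above and 35 below 0, in a fit that moved the median of all genes to -0.07, and without aged WT vehicle 1 it was 26 and 27. The APP vehicle group is shared with the comparison above, so that the signs of both are tied. The largest fold changes above 0 were those of Crebbp (0.38 ± 0.25 SE), Kdm6b (0.32 ± 0.16 SE) and Tet3 (0.29 ± 0.17 SE), genes in which vehicle-treated APP replicate 2 stood highest. Crebbp measured 40.9, 45.6, 44.8 and 43.9 CPM in aged WT replicates 1, 3, 4 and 5, all within the 33.3 to 92.6 CPM of the vehicle-treated APP mice.

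The lowest fold changes in this comparison were those of Hdac9 (-0.44 ± 0.24 SE, edgeR's adjusted p = 0.425), Sirt5 (-0.28 ± 0.15 SE, adjusted p = 0.404) and Hdac2 (-0.17 ± 0.09 SE, adjusted p = 0.379). Hdac9 measured 50.9, 33.0, 29.2 and 32.4 CPM in aged WT replicates 1, 3, 4 and 5 and 14.0 to 32.9 CPM in the vehicle-treated APP mice, and without replicate 1 of the WT group its log2 fold change was -0.24. Hdac2, a class I deacetylase known for limiting synaptic plasticity, measured 79.9 CPM in the lowest, 84.1 in the median and 86.4 in the highest vehicle-treated APP mouse. The WT mice measured 104.0, 92.1, 89.0 and 91.2 CPM, all above the APP mice. The exact permutation test, 2-sided and not adjusted, gave p = 0.00476, the smallest that 6 against 4 allows. Hdac2 has the lowest GC content of the members (41.0%). The 1064 genes tested between 40% and 42% GC had a median log2 fold change of -0.13 in this comparison. The part of GC content in the difference of Hdac2 was not tested. Groups without overlap were found for 1185 of 16962 genes (6.99%) in this comparison and for 1 of the 53 members, so that full separation was no more frequent among the members than among all genes. Without aged WT vehicle 4, the sample with choroid plexus markers, no member was called either.

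In the comparison of JQ1-treated APP with WT mice, which asked how far treated mice stood from untreated WT, 349 genes (2.06%) and no member were called, with 3 members higher and 1 lower at an unadjusted p under 0.05 in edgeR, and the same counts in DESeq2. All 12 members of 55% GC and over had fold changes below 0, with a median of -0.17, and of all genes of that class 63.7% did. Over all members 25 lay above and 28 below 0, and 12 and 41 with GC content and length modelled, where the median of all genes was -0.08. Sirt6 had the lowest log2 fold change (-0.37 ± 0.13 SE, edgeR's adjusted p = 0.184), Hdac9 followed with -0.27 and Setd1a with -0.19. Tet1 had the highest (0.43 ± 0.16 SE, adjusted p = 0.195), then Kdm5a (0.29 ± 0.10 SE, adjusted p = 0.184) and Ezh2, the methyltransferase of the Polycomb complex, with 0.27. Tet1 measured 10.0, 8.17, 9.02 and 8.45 CPM in aged WT replicates 1, 3, 4 and 5, all below the 11.3 to 13.1 CPM of the JQ1-treated APP mice. Kat6a, the only other member without overlap, had a log2 fold change of 0.21 (adjusted p = 0.603). Groups without overlap were found for 630 of 16962 genes (3.71%) in this comparison, and 2 of 53 members is close to that share. For Ezh2, 1 JQ1-treated mouse, replicate 6, stood at 13.9 CPM, with the other 5 between 7.09 and 9.56 CPM.

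Side by side, Sirt6 stood at -0.54 for JQ1 against vehicle in APP mice, at 0.17 for vehicle-treated APP against WT and at -0.37 for JQ1-treated APP against WT. Kdm6b stood at -0.48, 0.32 and -0.16, Kdm5a at 0.38, -0.10 and 0.29, and Tet1 at 0.31, 0.12 and 0.43. These comparisons share groups in pairs and are not independent.

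In young WT mice, JQ1 against vehicle addressed the response to the drug in healthy tissue. limma called 1 of 18420 loci (0.00543%) and no member, with 2 members higher and none lower at an unadjusted p under 0.05. The locus called, named here after its values were seen, was B3glct, listed as B3galtl (log2 fold change -0.34, limma's adjusted p = 0.0362). Fold changes, on the scale of log2(FPKM + 0.1), were above 0 for 33 members and below 0 for 20, with a median log2 fold change of 0.04 over the members and 0.00 over all loci. Sirt6 measured an FPKM of 7.18 in the lowest, 7.58 in the median and 8.60 in the highest JQ1-treated mouse and 5.06, 7.31 and 8.28 in the vehicle-treated ones (log2 fold change 0.13 ± 0.08 SE, limma's adjusted p = 0.981), and the groups overlapped. Kdm5a stood at -0.10 ± 0.06 SE, Kdm6b at -0.00 ± 0.11 SE and Hdac5 at 0.05 ± 0.07 SE, and the lowest values were those of Tet1 (-0.22 ± 0.11 SE), Ehmt1 (-0.18 ± 0.10 SE) and Setd1a (-0.12 ± 0.10 SE).

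Tet1 in young mice measured an FPKM of 1.29 in the lowest, 1.72 in the median and 1.99 in the highest JQ1-treated mouse and 1.49, 1.90 and 2.48 in the vehicle-treated ones. For Ehmt1, which works with Ehmt2 on histone H3 lysine 9, these values were 9.91, 12.4 and 17.1 with JQ1 and 10.4, 15.04 and 16.1 with vehicle. The groups overlapped for both genes. Over the 53 members r with GC content was 0.13, and of the 12 members of 55% GC and over 8 had fold changes above 0. A difference between the response in APP mice and that in young WT mice was not tested, as the experiments differ in unit, sex, age, days of treatment and genotype at once.

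The widest changes in young mice came from 2 loci. The locus of Ep300, joined with Gm23880, a miRNA gene annotated with 54 bases inside it, had an FPKM of 710.3 in JQ1-treated replicate 1, between 8.96 and 11.0 in the other 7 JQ1-treated mice and between 8.43 and 10.2 in the vehicle-treated ones. Its log2 fold change was 0.85 ± 0.76 SE, and 0.08 ± 0.06 SE without that sample, where the JQ1-treated mean was an FPKM of 9.87 ± 0.679 (SD, n = 7). Kdm4b measured an FPKM of 42.9 in the lowest, 55.3 in the median and 95.8 in the highest JQ1-treated mouse and 19.0, 33.1 and 64.6 in the vehicle-treated ones. Its log2 fold change was 0.84 ± 0.26 SE (limma's adjusted p = 0.981), the largest apart from Ep300, and its groups overlapped, with a coefficient of variation of 46.3% in the vehicle-treated mice. In the aged mice Kdm4b varied less, from 102.6 to 128.1 CPM in the vehicle-treated APP group.

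The members with joined loci were also compared between the kinds of file. Sirt7 had a log2 fold change of 0.03 ± 0.06 SE in young mice on the joined locus, with an FPKM of 32.1, 35.7 and 41.0 in the lowest, median and highest JQ1-treated mouse against 31.8, 35.2 and 39.5 with vehicle. Setd1a, a methyltransferase of histone H3 lysine 4, measured 13.7, 15.8 and 19.8 with JQ1 and 14.8, 16.1 and 24.0 with vehicle on its joined locus. In the counts, which are given for each gene alone, Setd1a measured 23.8, 31.3 and 35.3 CPM in JQ1-treated and 32.9, 35.8 and 42.9 CPM in vehicle-treated APP mice, which overlapped.

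Other chromatin genes were taken from a list of 82 further writers, erasers, readers and complex subunits, of which 81 were tested in the counts and 79 in the FPKM. In JQ1 against vehicle in APP mice, 1 rose and 2 fell, a share to be read beside the 1.08% of all genes, with a median log2 fold change of -0.01 over the list. Dot1l, the methyltransferase of histone H3 lysine 79, fell by 0.52 on the log2 scale (SE 0.12, edgeR's adjusted p = 0.0474). Jmjd1c, a demethylase-like protein, rose by 0.39 (SE 0.09, adjusted p = 0.0447). The exons of Dot1l held 58.3% GC and those of Jmjd1c 41.5% GC, and with GC content and length modelled neither Dot1l (log2 fold change -0.27, edgeR's adjusted p = 0.168) nor Jmjd1c (0.17, adjusted p = 0.373) was called. None of the list was called in the other 3 comparisons, where 6, 6 and 5 had an unadjusted p under 0.05, although with GC content and length modelled 2 were called in vehicle-treated APP against WT mice.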

How the data were processed

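CA1 RNA of 32 of 33 labelled mice was analysed, grouped by the labels only. The authors aligned reads to mm10 and made the deposited counts per gene with HTSeq after STAR (tool names from the submitters' processing notes, with CASAVA 1.8.2); the deposited FPKM per locus came from TopHat, Cufflinks and Cuffdiff, per the labels. Both were read as deposited, without reads. Counts were scaled with TMM, filtered with filterByExpr and tested in 1 fit of the 3 aged groups with edgeR 4.0.16 (quasi-likelihood, robust), FPKM with limma 3.58.1 (trend, robust) on log2(FPKM + 0.1), keeping loci that reached an FPKM of 0.5 in 8 or more samples. P-values were adjusted over all features by the Benjamini-Hochberg method, with a threshold of 0.05. The labels number the samples of a group without saying that each is a separate mouse, so p-values measure the spread between these samples. Further tools were DESeq2 1.42.0, R 4.3.3 and Python 3.11.15.

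Symbols, coordinates, exonic length and GC content came from GENCODE mouse release M21 (GRCm38) and were known for 98.9% of tested genes and 83.1% of tested loci. Where a member had a second locus of its name (Hdac8, Hdac11, Sirt1, Kat8, Sin3a), that with the higher mean FPKM was used. GC content and length were modelled by splines with 5 degrees of freedom. The main fits, DESeq2, edgeR with the replicate block and the GC models without a block were tested on simulated data. No slope on GC content was put into these data, and the other alternatives were not tested in this way. The members and lists were chosen with earlier results of these data known. Members were named in full if called, or among the 3 largest changes of each sign in a comparison, or on a joined locus, or, in a family with none of these, highest in young vehicle-treated mice; other members were named after their values were seen. Alternatives were other size factors, filters, pseudocounts and tools, the replicate number as a block, the GC model, a covariate and leaving out each sample. 1 gene of the further chromatin list is not reported here.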

Additional observations from a re-analysis of the deposited data

Results flagged for a closer look

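In groups of 4 to 10 mice, values far from the rest of their group, by Dixon's criterion, were sought for 17 named members in 85 groups, and 6 were found. Chance gives about 1 in 20 groups for members chosen without regard to their values. These members were named in part for large changes in the same values, so that rate does not hold for them. The 6 values are not read as an excess. 3 of them lay in aged WT vehicle 1: Sirt6 with 18.5 CPM (other 3 mice 24.7 to 25.7), Sirt7 with 54.4 CPM (others 60.8 to 62.1) and Setd1a with 27.2 CPM (others 36.5 to 37.6). That library also had the slope on GC content of -0.25 given above, and the part of this slope in the low values was not tested. Setd1a measured an FPKM of 24.0 in young WT vehicle 1 (other 7 mice 14.8 to 18.7). Ezh2 measured 13.9 CPM in APP JQ1 6 (other 5 mice 7.09 to 9.56). The joined locus of Ep300 had an FPKM of 710.3 in young WT JQ1 1 (other 7 mice 8.96 to 11.0).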

How the results depend on the processing

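In JQ1 against vehicle in APP mice, the 1 member called became 4 with DESeq2, 2 with RLE size factors (194 genes in all, against 184) and 2 with at least 10 counts in every sample (217 genes), both Sirt6 and Kdm5a, 8 with the share of reads outside exons as covariate, 0 with GC content and length modelled and 0 with this model and the replicate block together. It was 1 with no filter, with only the 2 groups compared and with the replicate block. Leaving out 1 sample gave 0 to 3 members and 65 to 446 genes in all, the lowest without APP JQ1 2 (no member) and the highest without aged WT vehicle 1 (3 members). Sirt6 was called in 13 of 25 alternatives, with log2 fold changes from -0.60 to -0.47 and adjusted p (edgeR) from 0.0200 to 0.101 when 1 sample was left out. Leaving out aged WT vehicle 3, 4 or 5, which does not enter the difference, gave 0.0561, 0.0534 and 0.0510; the call was also lost without APP JQ1 2, 4 and 6 (0.0985, 0.0893 and 0.0643) and APP vehicle 1, 3, 5 and 6 (0.0541, 0.101, 0.0902 and 0.0613). In the other 3 comparisons no alternative called a member. The log2 fold change of Kdm6b in vehicle-treated APP against WT, 0.32, turned to -0.0096 with the GC model and the replicate block together. Of the other values of named members under an alternative, 576 kept their direction and side of the threshold, 11 passed it and 12 no longer did. The cause of these shifts was not tested. The GC model removes differences along GC content by construction, whatever their origin, so it is no test of a cause.

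The values did not settle whether replicate numbers pair the samples. In JQ1-treated and vehicle-treated APP mice, same-numbered samples had correlations of deviations from the group means between -0.11 and 0.34, with a mean of 0.12. In this comparison of JQ1 with vehicle, 3 of 6 JQ1-treated APP mice correlated best with their own number. Against aged WT mice, where 4 numbers were shared, 1 of 6 JQ1-treated and 0 of 6 vehicle-treated APP mice did. The mean correlations there were -0.22 and -0.05. In young mice 2 of 8 JQ1-treated samples did, with a mean of 0.03. With the replicate block, all genes called went from 184 to 87 in JQ1 against vehicle in APP mice. They went from 436 to 35 in vehicle-treated APP against WT and from 349 to 21 in JQ1-treated APP against WT. Over these 3 comparisons, DESeq2 called 749, 798 and 800 genes, the GC model with the block 31, 29 and 37, and the covariate 517, 362 and 112. With only the groups compared, 151, 679 and 227 were called. The GC model called 33 higher and 7 lower (105 and 79 without it), 373 and 85 (422 and 14), and 331 and 164 (327 and 22).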
